A study of Mus musculus with 6 samples.

Results

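The genes of the kinesin, unconventional myosin and cytoplasmic dynein motors were compared between wild-type and rd10 mouse retina. They were taken by symbol from the gene count table: symbols that begin with Kif or Myo followed by a digit or with Dync or Dynl. This gave 77 of the 24062 genes, namely 38 kinesin, 23 myosin and 16 dynein symbols. Whole retinas came from C57Bl6/J mice of wild-type genotype (WT) and from mice of the rd10 genotype, for which the same strain is given, all at postnatal day 30. Each group held 3 libraries, each from a sample of 2 frozen retinas. The rd10 allele is a missense mutation of Pde6b, which encodes a subunit of the rod phosphodiesterase, and rods are lost after birth. No label tells whether the 3 samples of a genotype were from different animals; the p-values therefore reflect only how far these samples scatter, which may be technical.

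Motor proteins turn ATP into movement along the cytoskeleton. Most kinesins walk toward the plus ends of microtubules and carry vesicles, mitochondria or ciliary cargo outward, while others act on the mitotic spindle or on microtubule ends. Cytoplasmic dynein 1 carries cargo back toward minus ends and dynein 2 returns cargo from the tip of the cilium, and the unconventional myosins move along actin. In photoreceptors, the outer segment is a modified cilium supplied by kinesin-2, and synapses in both plexiform layers depend on microtubule transport.

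The libraries held between 10923556 and 15818918 counts. Rod markers fell as a whole, with 13 of 13 called lower and a summed level of 100516 to 120046 CPM in WT against 20414 to 29948 CPM in rd10. CPM scale each count to the TMM-adjusted library size, and a gene is called where the adjusted p of edgeR's quasi-likelihood test is under 0.05. Of 14 microglia and macrophage markers 14 were called higher (summed 73.8 to 94.9 CPM in WT, 260 to 364 CPM in rd10), and of 12 Müller glia markers 9. Called higher were also 5 of 10 cone, 4 of 12 bipolar and 3 of 4 tested astrocyte markers, and 2 of 9 tested pigment epithelium and choroid markers were lower. Of 12 ganglion cell markers 1 was higher, as was 1 of 11 endothelium and pericyte markers. None of 12 amacrine or 6 horizontal cell markers was called. Of all genes, 7.12% were called higher. The bipolar markers are among the genes that set the inner neuron scaling used below as an alternative. In whole tissue, fewer cells of a type and less RNA per cell cannot be told apart.

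Of the motor genes, some kinesins and dyneins fell and some myosins rose, and 52 of 62 tested were not called. The other 15 of the 77 had too few counts to be tested. Lower in rd10 were 7 of them: the kinesin genes Kif21b, Kif18a, Kif3b and Kif1b and the dynein genes Dync2li1, Dynlt1b and Dync1li1. The part of the rod loss and of the Müller glia change in these values was not tested. Higher were 3, the myosin genes Myo1f, Myo5b and Myo1e. The 10 calls make up 16.1% of the motor genes tested, beside 14.4% of all 13905 genes tested. By direction, calls made up 7.12% (higher) and 7.32% (lower) of all genes. The share of motor genes called was thus near that of the whole table. The median log2 fold change, rd10 over WT, was 0.10 for the 62 motor genes and -0.04 for all genes.

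By class, 4 of 30 tested kinesin genes were called lower and none higher, 3 of 14 dynein genes lower and none higher, and 3 of 18 myosin genes higher and none lower. The difference between classes was not tested. Fold changes were positive for 16 of 18 myosin genes and 4 of 14 dynein genes with TMM, and for 9 of 18 and 0 of 14 with scaling to inner neuron genes. The class medians of the log2 fold change were 0.03 for kinesins, 0.28 for myosins and -0.29 for dyneins. Those of kinesins and myosins turned to -0.29 and -0.05 with inner neuron scaling, which moved the median of all genes by -0.32, while library size alone moved it by 0.24. The 3 libraries of one genotype did not overlap with those of the other for 28 motor genes, 45.2% of those tested, against 35.7% of all genes. Of these, 15 lay higher in rd10 (17.1% of all genes did so) and 13 lower (18.6%).

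**Figure D1:**
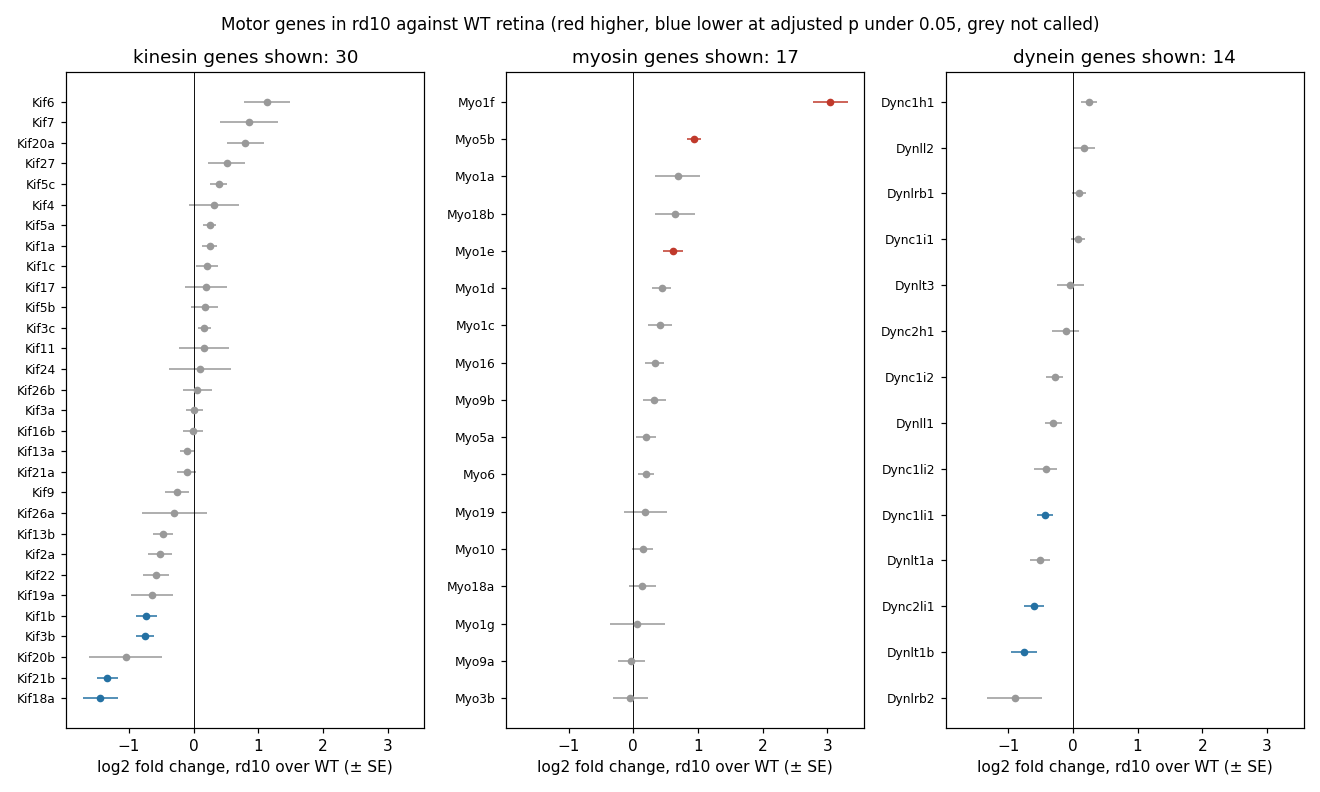
Log2 fold change of rd10 over WT (x axis) with its SE for the tested kinesin (30), myosin (18, of which 1 is not shown) and dynein (14) genes, from edgeR with TMM factors. Red points are the 3 genes called higher, blue points the 7 called lower, and grey points did not pass; Myo1f lies far to the right of all other motor genes.

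Among kinesins of axonal and vesicle transport, Kif21b and Kif1b fell, and the other 9 of 11 were not called. Kif21b encodes a neuronal kinesin that also slows microtubule growth. It stood at 239, 178 and 183 CPM in WT-1, WT-4 and WT-23 and at 66.8, 88.4 and 82.2 CPM in Rd10-3, Rd10-4 and Rd10-5. The lowest WT library was thus well above the highest rd10 library, and the log2 fold change was -1.34 ± 0.16 (SE; edgeR adjusted p = 0.00167). Kif21b kept its call under all 16 alternatives.

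Kif1b, whose products carry mitochondria and synaptic vesicle precursors, was the most abundant kinesin gene by CPM in WT. It had 928, 1098 and 1355 CPM in WT-1, WT-4 and WT-23, and 669, 600 and 764 CPM in Rd10-3, Rd10-4 and Rd10-5. The groups did not overlap, although the WT libraries spread widely, and the log2 fold change was -0.73 ± 0.16 (SE; edgeR adjusted p = 0.0218). The call was lost when WT-4, Rd10-3 or Rd10-4 was left out (adjusted p = 0.0948, 0.0988 and 0.0770), with library size alone (0.0715) and against a fold of 1.2 (0.0546). Its paralog Kif1a, a motor of synaptic vesicle precursors and dense core vesicles, had 1056, 1000 and 919 CPM in WT and 1142, 1262 and 1124 CPM in rd10. Each rd10 value of Kif1a was above each WT value, but the gene did not pass (0.25 ± 0.11, adjusted p = 0.182) and had -0.07 with inner neuron scaling.

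The conventional kinesin heavy chains, which carry many axonal cargoes, were not called. Kif5c had 364, 401 and 480 CPM in WT and 567, 517 and 546 CPM in rd10, with no overlap and a log2 change of 0.39 ± 0.13 (SE; edgeR adjusted p = 0.0837). It passed with upper quartile factors (adjusted p = 0.0401), library size alone (0.0155), the GC trend removed (0.00369) and without WT-23 (0.0268). With inner neuron scaling its log2 fold change was 0.05 (adjusted p = 0.833). Without WT-4 or Rd10-3 its adjusted p was 0.273 and 0.265. Kif5a (0.25 ± 0.10, adjusted p = 0.142) did not overlap between the groups either, but had -0.07 with inner neuron scaling. Kif5b overlapped between the groups (0.17 ± 0.21, adjusted p = 0.628). Kif21a, the paralog of Kif21b, had -0.11 ± 0.14 (adjusted p = 0.651). Kif13b, a kinesin of membrane protein transport, lay between 11.2 and 13.4 CPM in WT and between 8.75 and 9.28 CPM in rd10 (-0.47 ± 0.15), and missed the threshold with an adjusted p of 0.0734. The remaining members, Kif13a, Kif16b and Kif1c, had log2 fold changes between -0.10 and 0.21.

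Kinesin-2 is a complex of the Kif3a motor chain with Kif3b or Kif3c and the accessory chain Kifap3, and drives anterograde transport in cilia. Of these chains only Kif3b was called. It had 125, 124 and 154 CPM in WT-1, WT-4 and WT-23 and 85.1, 68.7 and 84.8 CPM in Rd10-3, Rd10-4 and Rd10-5. All 3 rd10 values lay below all WT values, and the log2 change was -0.76 ± 0.14 (SE; adjusted p = 0.0104 by edgeR). Under the 16 alternatives its adjusted p ran from 0.000252 to 0.0472. Kif3a, by contrast, had 162, 184 and 210 CPM in WT and 197, 166 and 198 CPM in rd10, which overlap (0.01 ± 0.13, adjusted p = 0.964). Kif3c (0.16 ± 0.10, adjusted p = 0.316) and Kifap3 (-0.03 ± 0.13, adjusted p = 0.904) were not called.

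To show the start regions of these partner chains, whose levels parted, the 250 bases before the RefSeq transcript start of Kif3a (chr11:53567119-53567368, plus strand, GRCm38.p6) and Kif3b (chr2:153291166-153291415, plus strand) are printed 5′ to 3′. Capitals mark the GC box, GGGCGG on either strand, a site class of Sp-family factors.
Kif3a: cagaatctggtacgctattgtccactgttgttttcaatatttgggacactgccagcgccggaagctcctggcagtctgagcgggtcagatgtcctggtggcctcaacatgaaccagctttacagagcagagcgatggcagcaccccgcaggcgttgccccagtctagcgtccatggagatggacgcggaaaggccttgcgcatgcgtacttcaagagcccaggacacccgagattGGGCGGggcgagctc
Kif3b: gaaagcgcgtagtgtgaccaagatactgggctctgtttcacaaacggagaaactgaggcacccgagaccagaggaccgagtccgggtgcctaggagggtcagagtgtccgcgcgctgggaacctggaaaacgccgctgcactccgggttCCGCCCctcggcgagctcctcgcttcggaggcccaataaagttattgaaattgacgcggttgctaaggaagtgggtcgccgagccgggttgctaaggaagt
Each window holds 1 GC box, which begins 15 bases before the start in Kif3a and 101 bases before it in Kif3b, and none holds TAATCC or its complement, the core bound by the photoreceptor factor Crx. Among the windows of all 32851 RefSeq starts in the table, 32.7% hold a GC box and 6.25% TAATCC, counting both strands. Of the 71 windows of the 60 motor genes found there, 46 (64.8%) hold a GC box and 5 (7.04%) TAATCC. These are matches of letters only. The 32851 starts were taken whatever the level of the gene in retina and were not matched to the motor genes. The shares are therefore not like for like, and their difference was not tested.

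The other kinesins linked to cilia were low and not called. Kif17, a homodimeric kinesin-2 of sensory cilia, had 2.90 ± 1.07 CPM in WT and 3.31 ± 0.67 CPM in rd10 (SD, n = 3 per group). Kif7 and Kif27, relatives with a role in Hedgehog signalling for Kif7, had log2 fold changes of 0.86 ± 0.44 and 0.51 ± 0.28 (SE; edgeR adjusted p = 0.237 and 0.27). Kif6 had 9, 5 and 8 counts in WT against 15, 13 and 17 in rd10, without overlap, but did not pass (1.13 ± 0.36, adjusted p = 0.0708). Kif19a and Kif9, both tied to motile cilia, had -0.64 ± 0.32 and -0.25 ± 0.19 and were not called, nor was Kif24 (0.10 ± 0.48). Of 6 tested genes of a motile cilium marker list none was called.

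The mitotic kinesins were scarce. Of 12, 6 passed the filter and 1 was called, Kif18a, which encodes a kinesin that limits chromosome oscillation on the spindle. Kif18a had 58, 112 and 82 counts in WT-1, WT-4 and WT-23 and 23, 26 and 35 in Rd10-3, Rd10-4 and Rd10-5. The groups were well apart, at 6.04 ± 1.58 and 2.21 ± 0.45 CPM (SD, n = 3 per group), and the log2 change was -1.45 ± 0.27 (SE; adjusted p = 0.0104 by edgeR). The call was lost when Rd10-3 was left out (adjusted p = 0.0591).

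Kif20a, a kinesin of cytokinesis, had 10, 10 and 13 counts in WT against 19, 14 and 20 in rd10, without overlap, and did not pass (0.80 ± 0.29, adjusted p = 0.105). Kif22, a chromosome-bound kinesin, had 76, 74 and 74 counts in WT against 43, 49 and 45 in rd10 (-0.59 ± 0.20, adjusted p = 0.0943). Kif11, the bipolar spindle motor, Kif20b and Kif4 overlapped between the groups and had 0.16 ± 0.38, -1.05 ± 0.56 and 0.32 ± 0.38. Kif4 has a near-identical pseudogene copy, so its counts are uncertain. Kif23, of the cytokinesis machinery, was under the filter, with 0, 1 and 5 counts in WT against 6, 1 and 2 in rd10. Among 7 tested proliferation markers, Mki67, a marker of cycling cells, was called higher (1, 3 and 1 counts in WT, 19, 11 and 17 in rd10) and Plk1, a mitotic kinase gene, lower (28, 24 and 22 against 5, 7 and 9). The part of cycling cells in the values of these kinesins was not tested.

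Of the remaining kinesins, Kif2a, a microtubule depolymerase active in neurons, had 70.2, 78.5 and 112 CPM in WT and 56.6, 55.7 and 69.4 CPM in rd10. The groups did not overlap but the gene missed the threshold (-0.52 ± 0.19, adjusted p = 0.11). It passed with inner neuron scaling, with the GC trend removed and without WT-1. Kif26a and Kif26b, kinesin-11 relatives without typical motor activity, were not called (-0.30 ± 0.51 and 0.06 ± 0.23).

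Class I myosins are single-headed motors that link membranes to actin. With all libraries, their fold changes were positive for all 7 tested members with TMM and for 5 of 7 with inner neuron scaling. They were positive for 6 of 7 when WT-23, Rd10-4 or Rd10-5 was left out. Called higher were 2 of the 7, beside 7.12% of all genes. Myo1f, the long-tailed myosin of leukocytes, rose most of all motor genes. It had 6, 9 and 6 counts in WT-1, WT-4 and WT-23 and 50, 53 and 58 in Rd10-3, Rd10-4 and Rd10-5, that is 0.508 ± 0.111 and 4.26 ± 0.37 CPM (SD, n = 3 per group). The groups were far apart, and the log2 change was 3.04 ± 0.27 (SE; adjusted p = 0.000576 by edgeR), and Myo1f passed in each of the 15 alternatives that kept it. The microglia and macrophage markers moved with it, as given above, with a median log2 fold change of 2.16 over 14 of 14 called. Their part in the rise of Myo1f was not tested. Myo1g, a short-tailed myosin of lymphocytes, was not called (38, 28 and 14 counts in WT, 19, 27 and 32 in rd10, 0.06 ± 0.43, adjusted p = 0.939).

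The 250 bases before the RefSeq start of Myo1f, the motor gene with the largest rise, lie at chr17:33555457-33555706 (plus strand, GRCm38.p6). The capitals again mark the GC box, which lies on the opposite strand, as in Kif3b.
Myo1f: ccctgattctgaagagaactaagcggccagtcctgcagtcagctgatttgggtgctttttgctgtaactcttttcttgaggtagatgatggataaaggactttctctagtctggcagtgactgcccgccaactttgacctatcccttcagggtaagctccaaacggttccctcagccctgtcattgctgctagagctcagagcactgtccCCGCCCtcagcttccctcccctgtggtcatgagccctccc
This window holds 1 GC box, 40 bases before the start, and no TAATCC on either strand.

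Myo1e, the other long-tailed class I myosin and a motor of endocytosis and cell protrusions, had 11.4, 11.3 and 12.7 CPM in WT and 18.3, 20.4 and 15.7 CPM in rd10. The ranges were apart, and the log2 fold change was 0.62 ± 0.15 (SE; edgeR adjusted p = 0.0315). The call was lost when WT-4, Rd10-3 or Rd10-4 was left out (adjusted p = 0.135, 0.128 and 0.117), with inner neuron scaling (0.228) and against a fold of 1.2 (0.0894). Myo1d did not overlap between the groups but missed the threshold, with 9.89, 9.33 and 9.09 CPM in WT and 11.5, 13.9 and 12.9 CPM in rd10 (0.44 ± 0.15, adjusted p = 0.093). Myo1c (0.41 ± 0.19) and the brush border myosin gene Myo1a (0.68 ± 0.35) were not called.

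Class V myosins are 2-headed carriers of organelles. Myo5b, which moves recycling endosomes, had 39.3, 42.6 and 39.8 CPM in WT-1, WT-4 and WT-23 and 78.3, 74.0 and 80.6 CPM in Rd10-3, Rd10-4 and Rd10-5. The libraries of each group lay close together and far from the other group, and the log2 change was 0.93 ± 0.11 (SE; adjusted p = 0.00139 by edgeR). Myo5b passed under all 16 alternatives, with a log2 fold change between 0.61 and 1.17. The more abundant Myo5a, a carrier of organelles in neurons and melanocytes, had 319, 382 and 460 CPM in WT and 454, 397 and 476 CPM in rd10, which overlap (0.19 ± 0.15, adjusted p = 0.438). Myo5c was under the filter, where WT had 9, 5 and 1 counts against 3, 6 and 4 in rd10.

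None of the other 9 tested myosins was called. Myo6, the minus-end directed myosin of endocytosis, had 166, 205 and 211 CPM in WT and 231, 206 and 227 CPM in rd10 (0.19 ± 0.13, adjusted p = 0.35). Myo9a had -0.03 ± 0.21 and Myo10, the filopodial myosin, 0.15 ± 0.16. Myo3b, a class III myosin with a kinase domain, had 2.52 ± 0.55 CPM in WT and 2.44 ± 0.48 CPM in rd10 (SD, n = 3 per group), and its relative Myo3a had 1 count in all 6 libraries together. Myo18a (0.14 ± 0.21), Myo19 (0.18 ± 0.34) and Myo9b (0.32 ± 0.18) overlapped between the groups. Myo16 (0.33 ± 0.15) and Myo18b (0.64 ± 0.31) did not overlap between the groups and did not pass (adjusted p = 0.183 and 0.211).

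For cytoplasmic dynein, 3 smaller subunit genes fell, while neither heavy chain gene was called. Dync1h1, the heavy chain of dynein 1, had 816, 874 and 705 CPM in WT and 949, 991 and 904 CPM in rd10. Each rd10 value was above each WT value, but the gene was not called (0.25 ± 0.12, adjusted p = 0.204; -0.07 with inner neuron scaling). Dync1li1, a light intermediate chain that binds cargo adaptors, had 83.3, 97.0 and 102 CPM in WT and 68.4, 67.7 and 73.3 CPM in rd10, without overlap (-0.43 ± 0.12, adjusted p = 0.0472). Its call was close to the threshold and held in 5 of 16 alternatives. The call was lost without each of WT-4, WT-23, Rd10-3, Rd10-4 and Rd10-5 (adjusted p between 0.107 and 0.213). Other losses were with RLE factors (0.0588), upper quartile factors (0.0995) and library size alone (0.323). It was lost as well with no filter (0.0745), a mean level of 5 CPM or more (0.0514) and a fold of 1.2 as the null (0.196). The paralog Dync1li2 also lay lower in every rd10 library (110, 114 and 166 against 107, 87.8 and 96.7 CPM) but did not pass (-0.42 ± 0.18, adjusted p = 0.153). The intermediate chains Dync1i1 and Dync1i2 had 0.07 ± 0.11 and -0.28 ± 0.13 and were not called.

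Dynein 2 drives retrograde transport in cilia. Its light intermediate chain gene Dync2li1 had 33.4, 31.8 and 25.0 CPM in WT and 18.2, 20.3 and 20.8 CPM in rd10, with the groups apart (-0.60 ± 0.15, adjusted p = 0.0333). The call was lost when WT-4, Rd10-3, Rd10-4 or Rd10-5 was left out (adjusted p = 0.142, 0.154, 0.0869 and 0.0848), with upper quartile factors (0.0573), library size alone (0.113) and a fold of 1.2 as the null (0.0949). The heavy chain gene Dync2h1 overlapped between the groups (65.7, 94.5 and 107 CPM in WT, 87.6, 66.0 and 93.4 CPM in rd10) and was not called (-0.11 ± 0.20, adjusted p = 0.754).

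Of 9 dynein light chain genes, 7 were tested and Dynlt1b, a Tctex-type chain, was called lower. Its counts were 334, 363 and 257 in WT-1, WT-4 and WT-23 against 204, 141 and 182 in Rd10-3, Rd10-4 and Rd10-5, or 23.3 ± 5.2 and 13.8 ± 1.8 CPM (SD, n = 3 per group). WT-23 was the lowest WT library in CPM and still above the rd10 range (-0.75 ± 0.20, adjusted p = 0.0419). Without WT-4, Rd10-3, Rd10-4 or Rd10-5 the adjusted p was 0.161, 0.0961, 0.128 and 0.113. The call was also lost with limma voom (0.0530), upper quartile factors (0.0653), library size alone (0.102), a mean level of 5 CPM or more (0.0541) and a fold of 1.2 as the null (0.0935), and held in 7 of 16 alternatives. Dynlt1a, Dynlt1b, Dynlt1c and Dynlt1f are near-identical copies on chromosome 17 whose reads the counting could split, so each value is uncertain; Dynlt1a had -0.51 ± 0.16 (adjusted p = 0.0635), Dynlt1c was at 0 throughout and Dynlt1f was under the filter. Dynll1 and Dynll2, small hub proteins that many other complexes share, had -0.30 ± 0.13 and 0.17 ± 0.16 and were not called. Dynlrb1 (0.09 ± 0.11), Dynlrb2 (-0.90 ± 0.43) and Dynlt3 (-0.04 ± 0.21) were not called either.

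**Figure D2:**
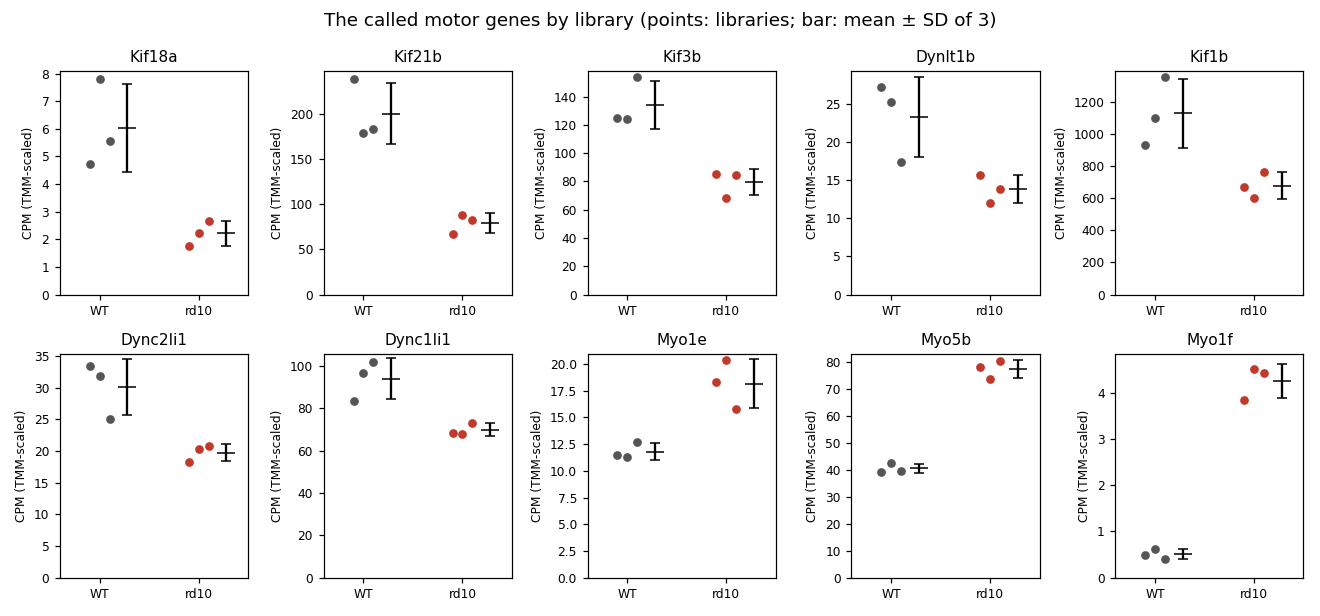
Level in each library (points, TMM-scaled CPM from 0) of the 10 called genes, with the mean ± SD of 3 libraries beside each group. In each of the 10 panels the WT and rd10 libraries do not overlap; Myo5b and Myo1f have the least spread relative to their difference.

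Because ratios of 2 genes within a library do not depend on scaling between libraries, counts of related motor genes were also divided by each other, for 13 pairs chosen with results known. The ratio of Kif3b to Kif3a counts was 0.768, 0.674 and 0.734 in WT-1, WT-4 and WT-23 and 0.432, 0.414 and 0.429 in Rd10-3, Rd10-4 and Rd10-5. The rd10 values were tightly grouped below the WT values, with a difference of -0.77 ± 0.06 in log2 units (SE over 3 libraries a group; p = 0.1 by a two-sided exact permutation test). The ratio of Myo5b to Myo5a counts was 0.123, 0.112 and 0.0866 in WT against 0.172, 0.186 and 0.169 in rd10, without overlap (difference 0.73 ± 0.16). The log2 differences were -0.97 ± 0.26 for Kif1b to Kif1a, -1.24 ± 0.30 for Kif21b to Kif21a, -0.68 ± 0.17 for Dync1li1 to Dync1h1 and -0.47 ± 0.10 for Dynll1 to Dynll2. They were -0.37 ± 0.06 for Kif13b to Kif13a and -0.65 ± 0.30 for Dync1li2 to Dync1h1. In these pairs too the groups lay apart.

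In all, 8 of the 13 ratios did not overlap, 7 lower and 1 higher in rd10. Each of these 8 had an exact permutation p of 0.1, the smallest that 3 against 3 allows, or 0.163 adjusted over the 13 pairs, so none could pass 0.05. Kif3b, Kif1b, Kif21b, Dync1li1 and Myo5b were already called genes. Kif13b, Dync1li2 and Dynll1 were not called, but their CPM already did not overlap between the groups. The separation of these 8 ratios is therefore no separate support. Which way a ratio moved depends on the gene taken as numerator, and no share over other gene pairs was computed. The ratio of Dync2li1 to Dync2h1 overlapped (-0.50 ± 0.37), as did that of Dync1i2 to Dync1i1 (-0.35 ± 0.19). Those of Kif5b and Kif5c to Kif5a and of Kif3c to Kif3a overlapped too.

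**Figure D3:**
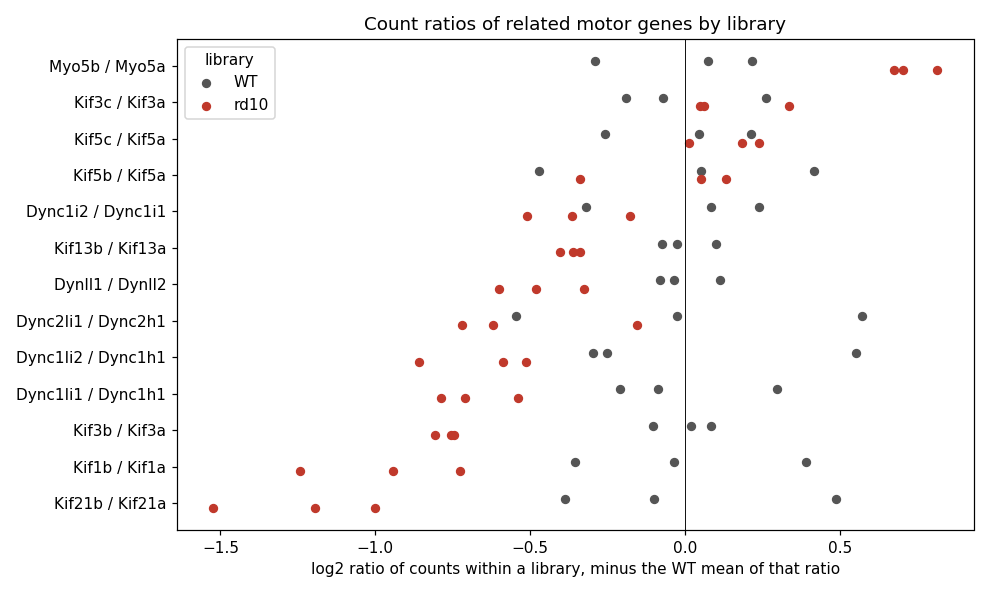
Log2 ratio of the counts of 2 related motor genes in each library, minus the WT mean of that ratio (x axis), for 13 pairs; grey points are WT and red points rd10 libraries. Red and grey are apart in 8 pairs, with red to the left in 7 of them and to the right for Myo5b to Myo5a. The pairs were chosen with results known.

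Per length of exon sequence (CPM per kilobase of the union of annotated exons, means of 3 libraries), the most abundant motor genes in WT were Dynll2 (181), Dynlrb1 (157) and Kif1a (106). Then came Kif1b with 64.0, Kif5c with 58.1 and Kif5a with 55.0. In rd10 Dynll2 (203), Dynlrb1 (167) and Kif1a (126) were again ahead, whereas Kif1b, at 38.5, stood below Kif5c (76.1) and Kif5a (65.5). By mean CPM in rd10, without division by length, Kif1b (678) was above Kif5c (543) and Kif5a (458). The order of these genes thus depends on the exon length used. The most abundant myosin in WT was Myo5a (26.1 per kilobase), followed by Myo6 (16.1) and Myo9a (9.83). The motor genes together took 0.645%, 0.699% and 0.764% of all counts in WT-1, WT-4 and WT-23 and 0.851%, 0.797% and 0.842% in Rd10-3, Rd10-4 and Rd10-5. These shares are of unscaled libraries, in which rod transcripts fell.

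The 15 genes under the filter were Dynlt1c, Dynlt1f, Kif12, Kif14, Kif15, Kif18b, Kif23, Kif2b, Kif2c, Kif4-ps, Myo15, Myo1h, Myo3a, Myo5c and Myo7b. No library held more than 12 counts of any of them. Dynlt1c, Kif12, Kif2b, Kif4-ps (a pseudogene) and Myo7b were at 0 in every library, which allows up to 3 counts, or 0.190 to 0.275 CPM of the unscaled totals.

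Of 88 tested genes of 8 lists of motor partners and relatives, 6 were called lower (6.82%, beside 7.32% of all genes) and 1 higher (1.14%, beside 7.12%). Of 9 kinesin light chains, accessory and C-type kinesins, none was called (median log2 fold change -0.03), and none of 12 dynactin subunits (median -0.12). Of 12 dynein regulators and adaptors 3 were lower: Bicd2 (-0.95 ± 0.15, adjusted p = 0.00523), an adaptor of vesicles, and Hook1 (-1.17 ± 0.22, adjusted p = 0.00993) and Hook3 (-0.88 ± 0.23, adjusted p = 0.038), adaptors of the Hook family. Of 17 kinesin cargo adaptors, 1 was lower, Rhot1, the mitochondrial GTPase that anchors kinesin to mitochondria (-0.85 ± 0.16, adjusted p = 0.0114). Of 12 myosin V and VI adaptor genes, 2 were lower: Optn, the autophagy receptor bound by myosin VI (172 ± 5 CPM in WT, 64.1 ± 11.4 in rd10; SD, n = 3 per group; -1.43 ± 0.14, edgeR adjusted p = 0.000826), and Myrip (-0.77 ± 0.12, adjusted p = 0.0053), a Rab27 effector. No class II myosin heavy chain (5 tested) or myosin light chain and regulator (14 tested) was called, and of 7 axonemal dynein heavy chains Dnah8 was higher (20, 19 and 14 counts against 31, 37 and 45; 1.2 ± 0.29, adjusted p = 0.0289). In these lists together no other gene was called.

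The authors' deposited table, which lists 3427 genes, held 13 motor genes, 9 with negative and 4 with positive log2 fold changes. The authors' deposited table holds only genes with a listed p-value up to 0.0499, a fold of at least 1.2 and at least 2 FPKM in one group, limits that differ from those used here. It included 8 of the 10 genes called here and not Kif18a or Myo1f. In the authors' deposited table Kif21b had 31.0 FPKM in WT and 12.2 FPKM in rd10, Kif3b 24.7 and 14.6, Kif1b 136.6 and 82.0, and Myo5b 6.5 and 12.4. It comes from the same libraries and is no separate evidence. None of the 13 was in the authors' deposited table of 293 selected genes. In mm10 coordinates the authors' deposited table gives Kif21b on chromosome 1 from 136131389 to 136177998 (plus strand), Kif3b on chromosome 2 from 153291413 to 153333390 (plus strand) and Kif1b on chromosome 4 from 149176319 to 149307693 (minus strand). GENCODE M21 (GRCm38) places Myo1f on chromosome 17 from 33555707 to 33607764 and Kif18a on chromosome 2 from 109280738 to 109341747, both on the plus strand, and all 5 are protein coding genes there.

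The number of calls depended on the scaling and on single libraries. With the trend of each library with transcript GC content removed, 9 motor genes were higher and 14 lower (33.5% of all genes called), among them all 10 named above. The shares over all genes were 15.6% higher and 17.9% lower in that fit. With library size alone 14 motor genes were higher and 3 lower, where 17.8% and 4.11% of all genes were. With inner neuron scaling the counts were 2 and 16, or 3.23% and 25.8% of the motor genes tested, beside 4.28% and 27.5% of all genes. Without WT-1 there were 5 and 11 (11% and 11.8% of all genes), and without Rd10-3 there were 2 and 2 (3.35% and 2.91%). The calls over all genes thus moved in the same direction as those of the motor genes. Kif21b, Kif3b, Myo1f and Myo5b were called in every alternative that tested them.

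**Figure D4:**
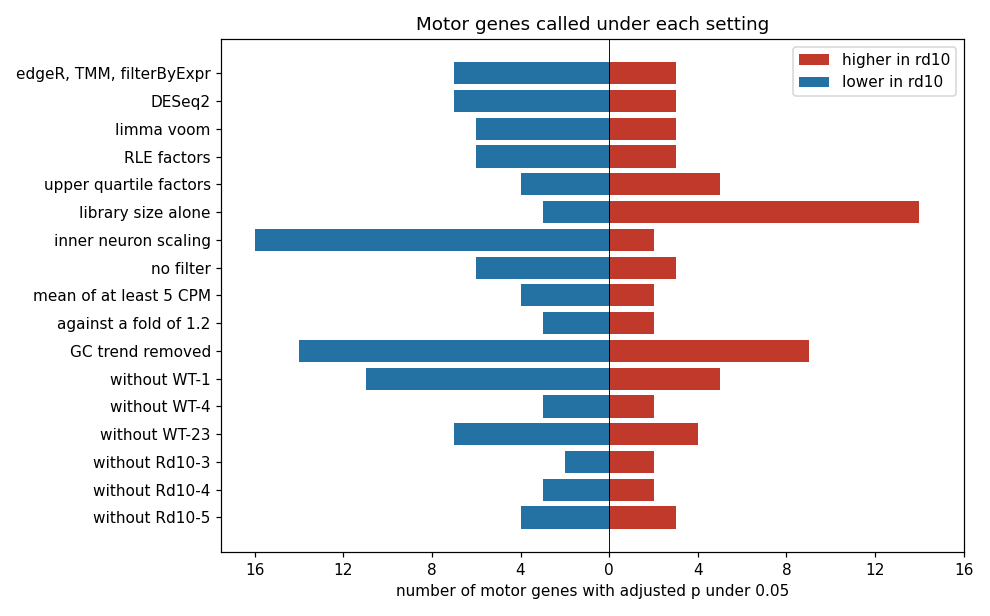
Number of motor genes with an adjusted p under 0.05 (x axis) that were higher (red, to the right) or lower (blue, to the left) in rd10, for the reported fit and 16 alternatives. The reported fit has 3 higher and 7 lower; the balance moves to 14 and 3 with library size alone and to 2 and 16 with inner neuron scaling, where all genes had 17.8% higher and 4.11% lower, and 4.28% and 27.5%.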

How the data were processed

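Whole-retina RNA of 3 WT and 3 rd10 samples was sequenced from strand-specific libraries made from 1 µg of total RNA, per the labels' protocols. The submitters' processing notes name TopHat2 2.1.0, HTSeq and edgeR with mm10, without their roles. Not given in the sources used here: annotation and strand setting of the counting. Whole-number counts per gene were deposited by the authors, not normalized, per the file headers. The authors also deposited FPKM values, 1 per group, a log2 fold change and a p-value per gene. Column numbers match no replicate number, so columns were assigned by genotype and kept their names.

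Counts were filtered with filterByExpr and tested across all 13905 remaining genes in edgeR 4.0.16 (R 4.3.3; TMM, robust quasi-likelihood fit on genotype alone, Benjamini-Hochberg adjustment, threshold 0.05). Standard errors were the log2 fold change over the root of F. Libraries of a group differed beyond sampling noise (chi-square per degree of freedom 7.36 to 57.8). The fit was tested on simulated data for rd10 against WT: of 198 changed genes among 13764 tested it recovered 108, none in the wrong direction, and 15 of its 123 calls were false, a higher share than the threshold of 0.05. Ratios of counts were compared with exact permutation tests. Alternatives were DESeq2 1.42.0, limma 3.58.1 voom, other scaling, filters and thresholds, removal of a GC trend, and leaving out each library; inner neuron scaling takes TMM factors from bipolar, amacrine and ganglion cell markers. The members, lists and pairs were chosen with earlier results of these data known. Genes named were a fixed set, the called genes, the 3 most abundant per class and up to 3 called genes per list; others complete a count or were added after their values were seen. Exon lengths and GC content came from GENCODE M21, which matched all 77 genes, and promoters from RefSeq (GRCm38.p6). One gene that fits the symbol rule is not reported here.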

Additional observations from a re-analysis of the deposited data

How the results depend on the processing

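The called motor genes numbered 3 higher and 7 lower. Both counts moved by over 1.5 times with upper quartile factors (5 higher, 4 lower) and library size alone (14 and 3). So they did with the GC trend removed (9 and 14). Only the lower count did with scaling to inner neuron genes (2 and 16) and a mean level of 5 CPM or more (2 and 4). The same held with a fold of 1.2 as the null (2 and 3). Of all genes, 17.8% were higher and 4.11% lower with library size alone, 4.28% and 27.5% with inner neuron genes, and 15.6% and 17.9% without the GC trend. Leaving out 1 library gave 2 to 5 higher and 2 to 11 lower. The stricter filter left 42 motor genes, which removes Kif18a and Myo1f by construction; the other causes were not tested. DESeq2 gave 3 and 7, and limma voom, RLE factors and no filter 3 and 6 each. Over single motor genes, 891 values kept their side of the threshold, 38 lost a call and 43 gained one, and no called gene changed direction. No paired analysis was possible because no label pairs a WT sample with an rd10 sample. The columns also carry no replicate numbers of the labels. At 10923556 to 15818918 counts per library, 15 motor genes were too low to test.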
